A study of Mus musculus with 2 samples.

Results

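The pituitary-hormone-rich spots were the 100 barcodes, of 1993 in the count matrix, that gave the largest share of their RNA to 4 hormone genes. They were chosen by the summed unique molecular identifiers (UMIs) of Gh, Pomc, Cga and Tshb divided by all gene UMIs of the barcode. The 996 barcodes at the bottom of the same ranking, none of which held a hormone UMI, served as comparison spots. The sample was brain tissue of a C57BL/6 mouse embryo at stage E18.5, homozygous for a Ctcf mutation (R567W, made by genome editing), and SPARC-seq gave 1 RNA library and 1 chromatin accessibility library on shared barcodes. All groups compared here came from this mutant tissue, so no effect of the mutation was measured. The libraries had no replicates, so no test was made, and every interval is a 95% interval that covers counting error only. A barcode is read as a spot that can hold several cells, because each one joins 2 segments of 8 bases drawn from 50 sequences. The labels do not say what a barcode is, and no positions were used here.

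The anterior pituitary lies under the hypothalamus and is not neural tissue. Its somatotropes make growth hormone (Gh), its corticotropes and the melanotropes of the intermediate lobe cut the Pomc precursor into ACTH and melanocortins, and its thyrotropes make thyrotropin from a beta chain (Tshb) and the alpha chain shared with gonadotropins (Cga). Regulators such as Pitx1, Six6, Pou1f1 and Tbx19 build the gland and set these fates.

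Members lay on few values of the second barcode segment and many values of the first. The 3 second segments that held most members are shown because they carry the pattern, and the fourth because it holds 2 of the richest spots. They are called strips 1 to 4 from here on.
Strip 1: CAACCGCT
Strip 2: TAGAGTAA
Strip 3: GACCTTGA
Strip 4: ACTTAACC
Strip 1 held 26 members among its 37 spots, strip 2 held 33 among 48, and strip 3 held 31 among 46. Together these 3 strips held 90 of the 100 members, or 90.0% (82.4% to 95.1%, exact Clopper-Pearson interval), against 131 of all 1993 spots, or 6.57% (5.52% to 7.75%). Strip 4 held 2 members among 39 spots. By contrast members were found on 45 of the 50 first segments, and no first segment held more than 4 of them. A first segment meets each strip in a single barcode, so this spread follows largely from the crowding on 3 strips. The other 8 members lay on 7 further second segments. The hormone share chose the members, so this spread is a description.

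**Figure D1:**
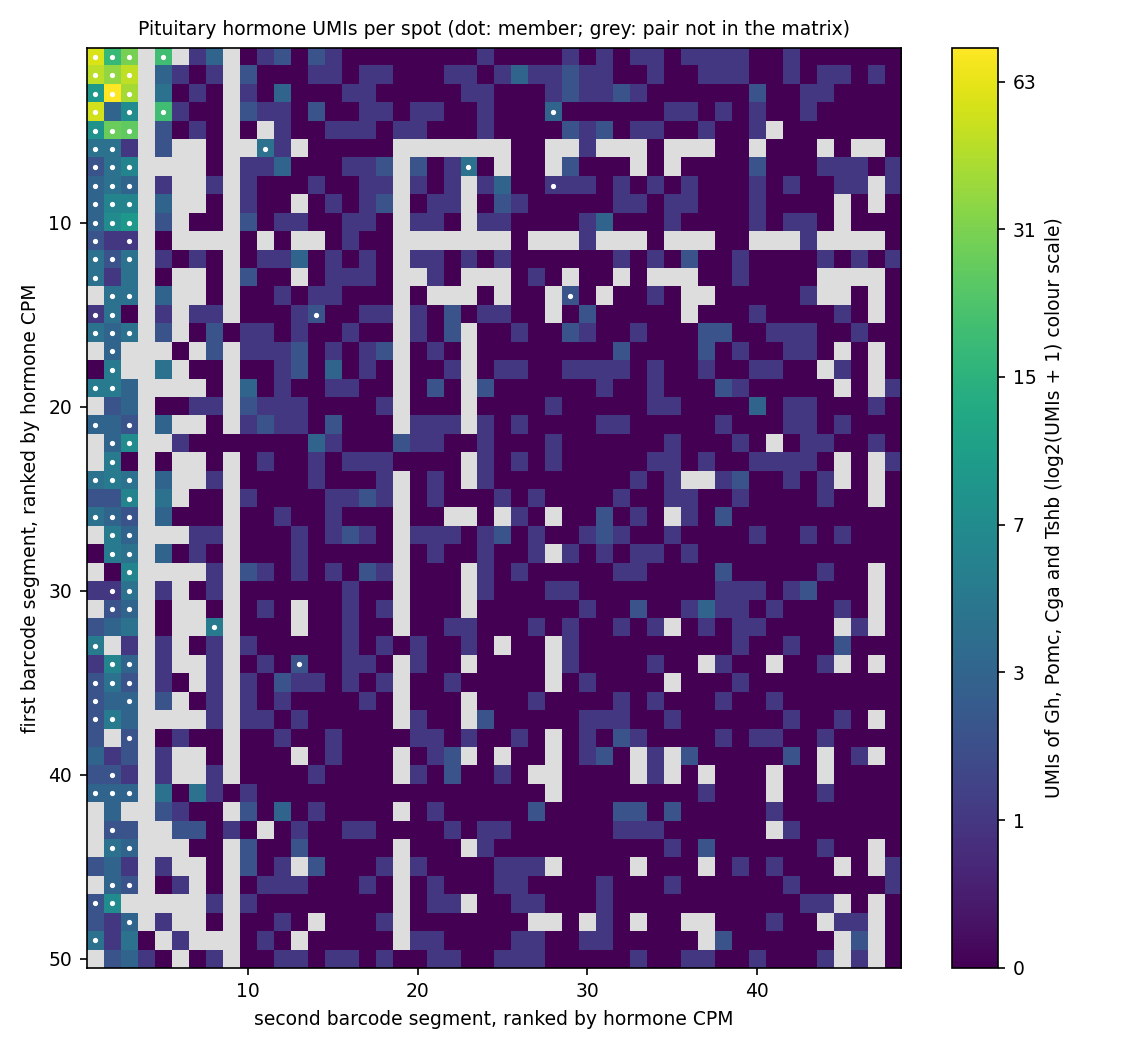
Hormone UMIs per spot (colour, log2(UMIs + 1) scale), with first segments as rows and second segments as columns, both ranked by their hormone counts per 1000000 UMIs (CPM); white dots mark members and grey cells are pairs that are not in the matrix. The columns ranked 1 to 3 are strips 1 to 3 and carry dots down most of their length, and the brightest cells sit where they meet the top 5 rows.

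The hormone UMIs that chose the members were few. All spots together held 1662 hormone UMIs among 8726497 gene UMIs. Members held 826 of them (49.7%), the comparison spots held 0, and the 897 spots in between held the other 836. The score ran from 12835 CPM in the highest spot, with 58 UMIs of 4519, to 1492 CPM at rank 50. At rank 100 it was 773 CPM, from 1 UMI of 1293, and the first spot left out had 770 CPM, from 2 UMIs of 2598. Of the members, 4 held 1 hormone UMI, 70 held 2 to 5, 13 held 6 to 9 and 13 held 17 to 74. No member held 10 to 16, and the 13 richest by count of hormone UMIs are described apart below. That limit was set after the values were seen. A count also favours deep spots, and the 13 are not the highest by share throughout. Their lowest share was 1872 CPM, while the other 87 members reached 3889 CPM. Of all spots, 1235 held no hormone UMI, and ties were broken by barcode order, which left 239 of these out of the comparison. The comparison spots therefore covered 42 of the 50 first segments.

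Gh (ENSMUSG00000020713, GRCm38 chr11:106300271-106301865) had 325 UMIs in 69 of the 100 members. Pomc (ENSMUSG00000020660, chr12:3954951-3960642) had 426 UMIs in 82 members. Cga (chr4:34893779-34907370) had 53 UMIs in 24 members, and Tshb (chr3:102775465-102782718) had 22 UMIs in 17. Outside the members Gh was at 34.2 CPM (30.4 to 38.4, exact Poisson interval) and Pomc at 50.4 CPM (45.7 to 55.4), with at most 3 UMIs of either gene in 1 spot. A low level of hormone RNA was thus present in spots over the whole matrix, beside which the members with 1 to 5 UMIs have to be read.

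The 13 richest members held 498 hormone UMIs, or 30.0% of all in the library. They lay at crossings of strips 1 to 4 with 5 first segments (GCCGCAAC, CCGAGAAT, CTGATGGT, TGAGTCTG and GATCTTAC), and 13 of these 20 crossings held such a spot. Of the other 7 crossings, 3 were members with 7 to 9 hormone UMIs and 4 held 2 to 4. The richest spot by count, on strip 2, had 71 Pomc and 3 Gh UMIs. The highest by share, on strip 1, had 39 Gh, 7 Pomc, 9 Cga and 3 Tshb UMIs.

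**Figure D2:**
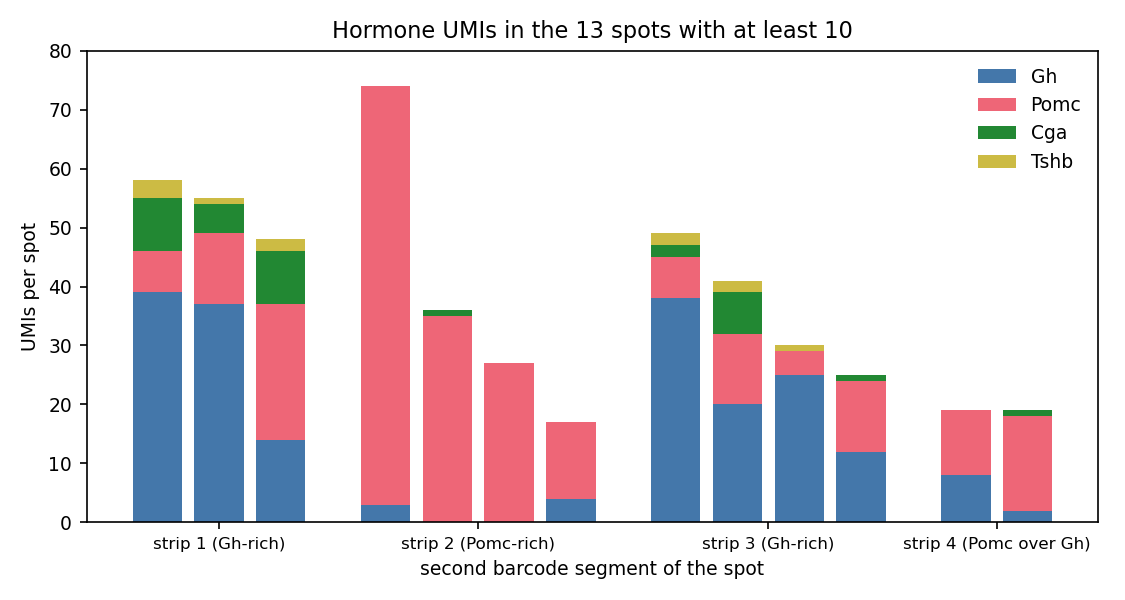
UMIs of Gh, Pomc, Cga and Tshb (stacked bars) in each of the 13 members with at least 10 hormone UMIs, grouped by second barcode segment. The 4 spots of strip 2 hold 0 to 4 Gh UMIs each beside 13 to 71 Pomc UMIs, while every spot of strips 1 and 3 holds at least 12 Gh UMIs.

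The strips differed in which hormone they carried. Among the 13 spots, those on strip 2 had 7 Gh and 146 Pomc UMIs, those on strip 1 had 90 and 42, and those on strip 3 had 95 and 35. The 2 spots of strip 4 had 10 Gh (503 CPM) and 27 Pomc UMIs (1358 CPM), so more Pomc than Gh was not particular to strip 2. Pomc was at 6562 CPM in the 4 spots of strip 2 and at 1727 CPM in the other 9, a ratio of 3.80 (2.94 to 4.94, conditional exact binomial interval). Gh ran the other way, at 315 against 3238 CPM, a ratio of 0.0972 (0.0386 to 0.204). Cga was highest on strip 1, at 1662 CPM against 175 CPM in the other 10 spots, a ratio of 9.51 (4.54 to 21.0). Pomc and Gh are genes of the score, and these values describe how members divide. Most spots of strips 1 to 3 outside the 13 were members chosen by the same genes. There Pomc on strip 2 was 2.63 times and Gh 0.178 times the level on strips 1 and 3, which is no independent repeat.

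Pcsk2, the convertase that cuts ACTH into melanocortins in melanotropes, was not in the score. It belongs to the list of hormone processing genes, which neurons use as well. Pcsk2 was at 255 CPM in members and 221 CPM in comparison spots, which held 909 of its UMIs, a ratio of 1.15 (0.903 to 1.45). Among the 13 it had 17 UMIs in the 4 spots of strip 2, or 764 CPM, and 10 UMIs in the other 9 spots, or 166 CPM, a ratio of 4.60 (1.99 to 11.2). Of the 17 UMIs, 8 lay in 1 spot. Outside the 13 it was at 293 CPM on strip 2 and 178 CPM on strips 1 and 3, a ratio of 1.64 (1.03 to 2.62). Strip 4, left out of that ratio, was at 136 CPM. The reference levels of both ratios, 166 and 178 CPM, lay below the 221 CPM of the comparison spots. Pcsk2 did not follow Pomc over the other strips. Outside the 13, strip 1 had 113 CPM of Pcsk2 and 440 CPM of Pomc. Strip 3 had 222 and 299 CPM, and strip 4 had 136 and 99.6 CPM. Pax7, a regulator of melanotrope fate, had 2 UMIs in the 4 spots and 1 in the other 9, too few to order (ratio 5.41, 0.282 to 319). Dlk1, a transmembrane protein made in many endocrine cells of the fetus, had 21 UMIs in the 4 spots of strip 3 against 13 in the other 9, a ratio of 3.41 (1.63 to 7.41). Outside the 13 the Dlk1 ratio of strip 3 to strips 1 and 2 was 1.28 (0.713 to 2.27). Strip 1 (192 CPM) and strip 4 (196 CPM) were above strip 3 (176 CPM) there. Chgb, a granin of the same list as Pcsk2, had 1 UMI in the 4 spots of strip 2 and 9 in the other 9 (0.301, 0.00686 to 2.17). On strip 1 its ratio among the 13 was 4.96 (1.14 to 21.6), and on strip 2 outside the 13 it was 2.08 (0.844 to 5.31). Dlk1 was chosen after its values were seen. Pcsk2 and Pax7 belong to the pituitary lists, but comparing single genes between strips was not planned and was done for a few genes only.

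RNA outside the score genes gave a mixed check of the label. Of 33 pituitary genes listed as hormones, transcription factors and receptors, 29 were not in the score. Of these 29, 7 had no UMI in members or comparison spots, 14 had none in members, and 8 reached 20 UMIs over both groups. Of those 8, 1 was at least 2-fold higher in members (Pitx1) and 2 at least 2-fold lower (Neurod1 and Isl1, which neurons also express), with 5 CPM added on both sides. Of all 13658 genes with 20 UMIs, 1.69% were at least 2-fold higher and 4.80% at least 2-fold lower. The median ratio was 0.975 over the 8 genes and 0.984 over all genes. The other hormones were near absent: Prl had 3 UMIs in the whole library, Lhb had 2 and Fshb had 0, none of them in a member.

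The transcription factors, taken as 1 list of 16 genes, had 36 UMIs in members (118 CPM of UMIs outside the score genes) and 292 in the comparison spots (71.1 CPM), a ratio of 1.66 (1.14 to 2.35). In the 13 richest members the list was at 171 CPM from 14 UMIs, a ratio of 2.40 (1.30 to 4.09), and in the other 87 at 98.5 CPM from 22 UMIs, a ratio of 1.38 (0.854 to 2.14). The value in the 13 rested on few spots: it was 1.94 (0.831 to 3.88) without the first segment GCCGCAAC, 2.06 (0.977 to 3.84) without strip 1 and 1.88 (0.803 to 3.75) without strip 2, and went up to 3.29 without strip 3. Pitx1, a homeodomain factor present in all hormone lineages of the gland, had 10 UMIs in 8 members and 28 in the comparison spots, a ratio of 4.80 (2.08 to 10.2). Without Pitx1 the list had 26 UMIs in members and a ratio of 1.32 (0.849 to 1.98), and the median ratio over the 4 factors with 20 UMIs was 0.938. Pou1f1, which drives the Gh, Prl and Tshb lineages, had 6 UMIs in the whole library, of which 4 were in members and 2 in comparison spots, a ratio of 26.9 (3.85 to 297). Six6, a homeodomain factor of the pituitary and eye fields, had 4 UMIs in members and 3 in comparison spots, a ratio of 17.9 (3.03 to 122). Tbx19, the factor that activates Pomc, had 3 UMIs in each group, a ratio of 13.4 (1.80 to 100). No member held more than 2 UMIs of any of these factors. Pou1f1, Six6 and Tbx19 were below the minimum of 20 UMIs, which 4 of the 16 factors reached, and were named after their values were seen. Of other factors below it, Lhx4 and Gata2 had 0 UMIs in members and 15 each in comparison spots, Lhx3 had 0 and 2, Hesx1 0 and 1, Nr5a1 1 and 6, and Foxl2 1 and 4. In all, 7 of the 16 factors had no UMI in a member.

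The 10 receptors had 19 UMIs in members and 201 in comparison spots, a ratio of 1.27 (0.749 to 2.04). Ghrhr, the receptor through which the hypothalamus drives Gh release, had 2 and 3 UMIs, and 0 in the 13 richest members. It was below 10 UMIs and was named after its values were seen. Esr1, the oestrogen receptor, had 7 and 43 UMIs (2.19, 0.831 to 4.91), and Crhr1 had 5 and 68 (0.988, 0.311 to 2.42). The 11 genes of hormone processing and granules, which neurons use as well, had 584 UMIs in members and 7721 in comparison spots, a ratio of 1.02 (0.933 to 1.11), and 0 of the 10 that reached 20 UMIs were past 2-fold. Within this list the granins Chga (27 UMIs, ratio 1.64, 1.06 to 2.46) and Chgb (23 UMIs, 1.52, 0.944 to 2.35) were on the high side, and Scg3 (19 UMIs, 0.569, 0.339 to 0.899) and Scg5 (38 UMIs, 0.706, 0.495 to 0.978) on the low side. In the 13 richest members Chga (2.27, 1.07 to 4.25) and Chgb (2.47, 1.17 to 4.63) had 10 UMIs each, and Scg5 had 3 (0.207, 0.0427 to 0.609). Pcsk1n, an inhibitor of prohormone convertases and the most abundant of the list, was at 734 CPM in members and 706 CPM in comparison spots.

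**Figure D3:**
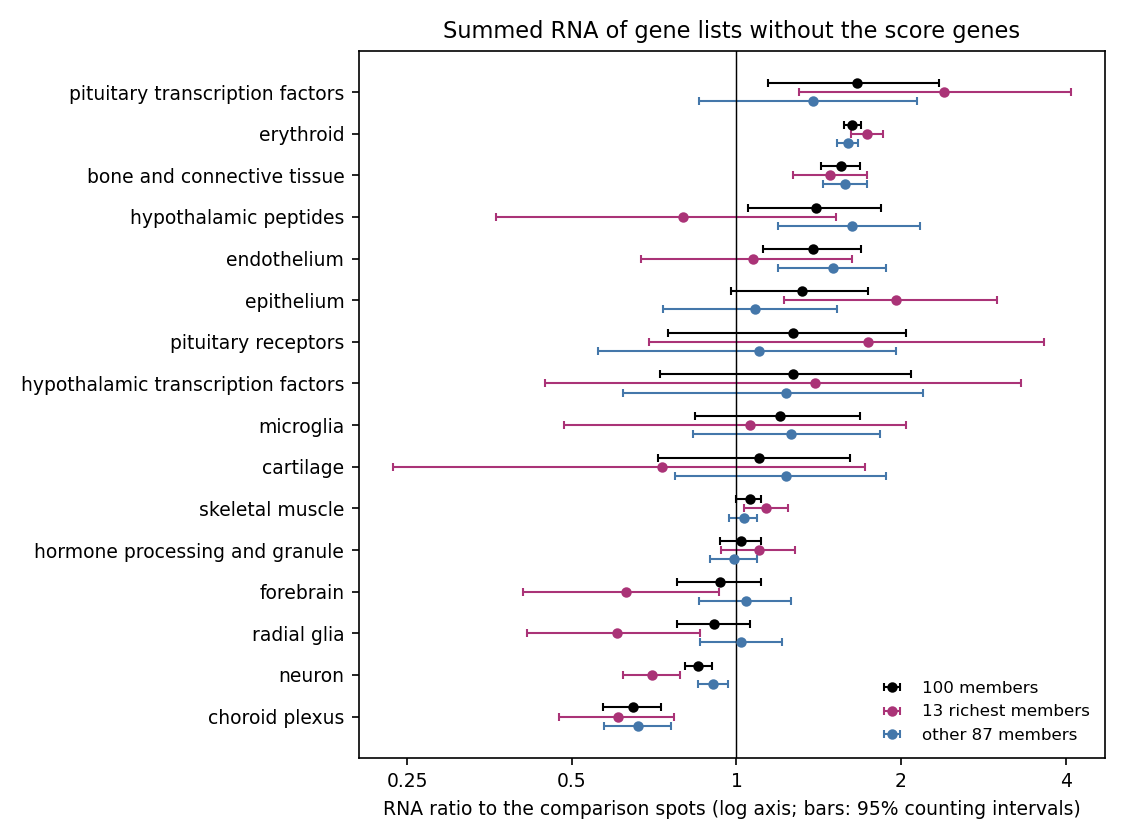
Ratio of the summed RNA of each gene list to the 996 comparison spots (log axis, bars are 95% counting intervals) for all 100 members, the 13 richest and the other 87; score genes are in no list and no total. Pituitary transcription factors, erythroid genes and bone and connective tissue genes lie above 1 in members, and neuron genes below 1; the choroid plexus list lies below 1 through Ttr.

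Other tissues moved with the members, and their part in the results was not tested. Each list is given by the ratio of its summed RNA and by the median ratio over its genes with 20 UMIs. Erythroid RNA (6 genes) was at 10375 CPM in members and 6358 CPM in comparison spots, a ratio of 1.63 (1.57 to 1.69, median 1.59). All 100 members held the globin gene Hba-a1, which was abundant in both groups, at 4166 CPM in members and 2403 CPM in comparison spots. Bone and connective tissue RNA (8 genes, led by the collagens Col1a1 and Col1a2) was at 2184 against 1406 CPM, a ratio of 1.55 (1.43 to 1.68; median 1.51). Endothelial RNA had a ratio of 1.38 (1.12 to 1.69; median 1.31). The 14 hypothalamic peptides had 59 UMIs in members and a ratio of 1.40 (1.05 to 1.84; median 0.916), which was 0.798 (0.363 to 1.52) in the 13 richest. Avp gave 18 of the 59 UMIs, and without it, left out after its values were seen, the other 13 genes had a ratio of 1.05 (0.743 to 1.44). Neuron RNA was lower, at 4212 against 4947 CPM, a ratio of 0.851 (0.804 to 0.901; median 0.872). Choroid plexus RNA was at 907 against 1404 CPM, a ratio of 0.646 (0.571 to 0.729; median 1.16). Ttr gave 265 of the 277 UMIs in members, and without it, likewise left out after its values were seen, the other 4 genes had 12 UMIs and a ratio of 1.19 (0.598 to 2.14). The 90 members of strips 1 to 3 were also set against the 41 other spots of the same strips. There the ratio was 0.977 (0.920 to 1.04) for erythroid, 0.918 (0.801 to 1.05) for bone and connective tissue and 0.931 (0.845 to 1.03) for neuron RNA. It was 1.19 (0.952 to 1.49) for choroid plexus, 1.36 (0.932 to 2.03) for endothelial and 1.38 (0.832 to 2.35) for hypothalamic peptide RNA. Pituitary transcription factors, on 32 and 13 UMIs, had a ratio of 1.44 (0.738 to 3.0), and pituitary receptors, on 18 and 14 UMIs, 0.755 (0.355 to 1.64). Hypothalamic transcription factors, on 12 and 19 UMIs, were lower in members, with a ratio of 0.371 (0.164 to 0.804), where against the comparison spots they had 1.27 (0.724 to 2.09). Of the RNA lists in this comparison theirs was the only interval that left out 1. In the 13 richest members epithelial RNA (6 genes) was at 268 against 137 CPM, a ratio of 1.96 (1.22 to 3.0), and in the other 87 its ratio was 1.08 (0.735 to 1.53). Epcam gave 9 of the UMIs in the 13, and without it, left out after its values were seen, the other 5 genes had 13 UMIs and a ratio of 1.27 (0.674 to 2.20).

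Of single genes, the highest ratios in members with 5 CPM added were those of Ptgds, Avp, Cited1, Cdcp1, Slc25a32, Gm30025, Tent5a, Acot2, Kcnk5 and Rab27a. Ptgds, the prostaglandin D synthase abundant in meninges, had 539 UMIs in 93 members, or 1765 CPM against 363 CPM, a ratio of 4.86 (4.39 to 5.36). It was lower in the 13 richest members (988 CPM) than in the other 87 (2050 CPM). Avp, the vasopressin gene of hypothalamic neurons, had 18 UMIs in 10 members, a ratio of 6.20 (3.34 to 11.1), and it was uneven over the strips. Outside the 13 it had 20 UMIs in the 34 spots of strip 1 and 2 in the 86 spots of strips 2 and 3. The ratio was 30.1 (7.32 to 266). Strip 4, left out of that ratio, had 8 Avp UMIs in 37 spots outside the 13, or 26.6 CPM. The remaining 8 genes had 7 to 15 UMIs in members. Cited1, a transcriptional coregulator, had 9 UMIs (6.37, 2.54 to 14.8), and Rab27a, a small GTPase of secretory granules, had 15 UMIs (4.12, 2.14 to 7.46).

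The lowest ratios belonged to Fam131b, Pon2, Mrgpre, B020031H02Rik, Isg20, Abhd11, Naa40, Nab1, Homer3 and Lsm3. All but Naa40 had no UMI in any member. Fam131b had 122 UMIs in comparison spots, and members would hold 9.08 at that rate. The interval of its ratio ran from 0 to 0.413. For the other 8 genes at 0, members would hold 4.84 to 7.36 UMIs at the comparison rate. Naa40 had 2 UMIs in members and 190 in comparison spots, a ratio of 0.142 (0.0170 to 0.518). Of the 655 genes at least 2-fold lower in members, 333 had no UMI there. Members held 305346 UMIs outside the score genes and the comparison spots 4104637, and the part of depth in these zeros was not tested.

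In the 13 richest members alone, 92 of the 2588 genes with at least 8 UMIs there were at least 2-fold higher than in comparison spots, with 5 CPM added. That minimum was set within the 13 and favours genes that are high in them. Epcam, an epithelial adhesion protein, had 9 UMIs in 8 of the 13 spots, or 110 CPM against 12.4 CPM, a ratio of 8.84 (3.82 to 18.1), and 3 UMIs in the other 87 members. Msx1, a homeobox gene, had 9 UMIs in 6 spots, a ratio of 7.15 (3.13 to 14.5). Dlk1 had 34 UMIs in 11 spots, a ratio of 3.86 (2.64 to 5.48). Gnas, which encodes the stimulatory G protein through which the receptors of GHRH and CRH signal, had 100 UMIs over all 13 spots, 1220 against 509 CPM, a ratio of 2.39 (1.94 to 2.93). Others of the 92 genes were higher than Dlk1 and Gnas, among them Ankrd16 (8 UMIs, 7.42, 3.05 to 15.7), Cyb561 (9 UMIs, 5.93, 2.61 to 11.9), Cped1 (16 UMIs, 5.24, 2.92 to 8.78) and Axl (10 UMIs, 5.16, 2.40 to 9.91). Gnas was added after its values were seen. All these genes were picked on the same spots and are a description.

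Accessibility took no part in choosing the members. Members had a median of 24362 fragments per spot and comparison spots 20478, while in RNA the order was the reverse, with 2617 and 3952 UMIs. The 13 richest were deeper in both, with 41460 fragments and 6057 UMIs. Fragments were counted within 1 kb on each side of transcription start sites (TSSs) and given as counts per 1000000 such fragments of the group (CPM of promoter fragments). The 33 pituitary promoters together held 192 fragments in members, or 486 CPM, and 1346 in comparison spots, or 479 CPM, a ratio of 1.01 (0.866 to 1.18). The 4 hormone promoters held 12 and 85 fragments, a ratio of 1.0 (0.499 to 1.84), transcription factors 103 and 684 (1.07, 0.861 to 1.32), and receptors 69 and 507 (0.967, 0.741 to 1.25). A difference at pituitary promoters was thus not detectable over all 100 members.

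In the 13 richest members the same promoters held 70 fragments, or 754 CPM, a ratio of 1.57 (1.22 to 2.0), and the other 87 members held 122, or 403 CPM, a ratio of 0.841 (0.693 to 1.01). Of the 13 spots, 12 were above the median of the comparison spots, and of the other 87, 40 were. That median, 416 CPM, lay below the pooled 479 CPM of the comparison spots, which held fewer fragments per spot than the 13. The part of depth in these counts of spots was not tested. Transcription factors held 40 fragments in the 13, a ratio of 1.77 (1.25 to 2.43), receptors 21 (1.25, 0.769 to 1.94), and the 4 hormone genes 5 (1.78, 0.564 to 4.32). Erythroid promoters were also high in these spots, and their part in the result was not tested. The 6 erythroid genes held 10 fragments, a ratio of 3.83 (1.77 to 7.42), and the 6 epithelial genes 14, a ratio of 1.62 (0.872 to 2.76). Neuron promoters had a ratio of 0.690 (0.436 to 1.04). Part of the pituitary difference lay at a pair of genes, picked on these same spots as the highest of the 33. Six6 held 9 fragments in 8 of the 13 spots, a ratio of 6.81 (2.90 to 14.3), and Ghrhr held 8 in 5 spots, a ratio of 6.21 (2.51 to 13.5). Of the 8 Ghrhr fragments, 3 lay in 1 spot. In RNA the 13 held 3 UMIs of Six6 and 0 of Ghrhr. Without Six6 the transcription factors had a ratio of 1.46 (0.981 to 2.09), without Ghrhr the receptors had 0.841 (0.444 to 1.45), and without both the pituitary promoters had 1.27 (0.943 to 1.67). Leaving out the spots of any 1 of the 9 segments moved the ratio of all 33 promoters between 1.47 and 1.72, that of transcription factors between 1.48 and 2.06, that of Six6 between 5.73 and 8.74 and that of Ghrhr between 3.36 and 8.48. The ranges of Six6 and Ghrhr only describe genes already picked as the highest here. Transcription factors were at 1.48 (0.958 to 2.18) without strip 2, and Ghrhr at 3.36 (0.664 to 10.6) without the first segment GCCGCAAC, so that both intervals then took in 1.

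The hormone promoters themselves were thinly covered. In the 13 spots Gh had 2 fragments, Pomc had 3, and Cga and Tshb had 0, where comparison spots had 34, 37, 6 and 8. The promoters of 2 score genes are printed from RefSeq (GRCm38.p6, 250 bases before to 50 after the start), with exact matches of 4 motifs searched on both strands in capitals: ATGNATA (POU1F1), TAATCC (PITX), TAATTA (LIM homeodomain) and TGACGTCA (CREB).
Pomc, chr12:3954695-3954994, plus strand: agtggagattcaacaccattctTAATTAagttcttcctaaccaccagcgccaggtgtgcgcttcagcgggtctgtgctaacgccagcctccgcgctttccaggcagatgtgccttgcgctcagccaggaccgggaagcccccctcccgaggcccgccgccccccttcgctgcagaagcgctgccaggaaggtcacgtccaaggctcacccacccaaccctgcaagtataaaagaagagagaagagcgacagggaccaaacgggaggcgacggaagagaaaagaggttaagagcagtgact
Cga, chr4:34893529-34893828, plus strand: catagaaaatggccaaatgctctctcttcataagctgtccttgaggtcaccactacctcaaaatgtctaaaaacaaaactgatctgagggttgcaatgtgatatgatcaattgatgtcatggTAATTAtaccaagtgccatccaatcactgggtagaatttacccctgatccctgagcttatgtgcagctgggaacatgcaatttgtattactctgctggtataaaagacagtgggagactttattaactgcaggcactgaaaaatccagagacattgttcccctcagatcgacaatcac
Each holds 1 match, of TAATTA, which 5.29% of 32851 promoter windows hold. ATGNATA was in 8.84% of all windows, TAATCC in 7.06% and TGACGTCA in 1.79%, and none of these was in the Pomc, Cga or Tshb window. The Tshb window, not printed, held no TAATTA either.

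Peaks, counted in the same library as the promoter fragments, gave a like picture, which is no independent repeat. The matrix counts cut sites in 91223 peaks, and both ends of a fragment can be counted, so that intervals on cut sites are too narrow. The 172 peaks within 50 kb of the TSS of a pituitary gene held 2065 CPM of all peak cut sites in members and 1866 in comparison spots, a ratio of 1.11 (1.06 to 1.16). The ratio was 1.05 (0.936 to 1.18) for the 41 peaks within 10 kb and 1.02 (0.986 to 1.05) for the 347 within 100 kb. In the 13 richest members the value within 50 kb was 2443 CPM (1.31, 1.20 to 1.42) and in the other 87 it was 1952 (1.05, 0.992 to 1.10). For the 13 the ratio was 1.19 (0.95 to 1.46) within 10 kb and 1.12 (1.06 to 1.19) within 100 kb. By spot the 13 ran from 1813 to 3271 CPM with a median of 2371, and 12 of them lay above the comparison median of 1821. The comparison spots ran from 0 to 4699, so the groups overlapped. Of the 170 pituitary peaks with at least 20 cut sites, 4 were at least 2-fold higher in members and 1 at least 2-fold lower, where 1.32% and 3.83% of all 88587 such peaks were.

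**Figure D4:**
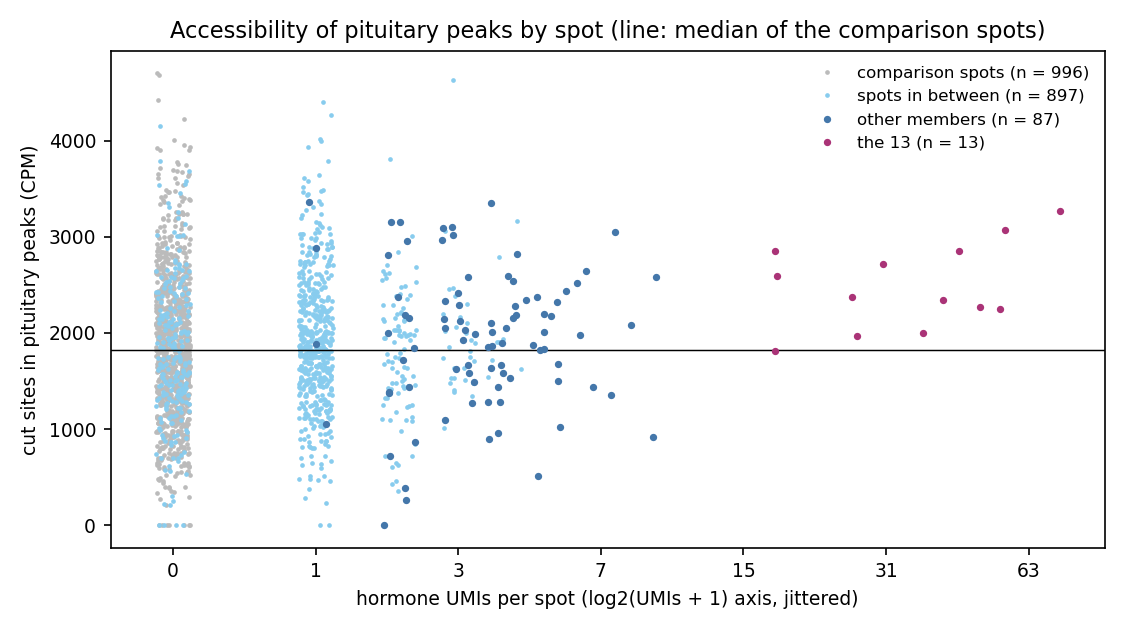
Cut sites in the 172 pituitary peaks as CPM of all peak cut sites (y axis) against hormone UMIs (x axis, log2(UMIs + 1) scale, jittered sideways) for every spot, with the median of the comparison spots as a line. The 13 richest members sit between 1813 and 3271 with 12 of 13 above the line, inside the range of the other spots.

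The 5 pituitary peaks with most cut sites in members were mostly promoters of broadly expressed neighbouring genes. The peak at the Smarcd2 promoter near Gh (chr11:106272536-106273544) had 119 cut sites in members, a ratio of 1.48 (1.21 to 1.81). A peak 26672 bases downstream of the Pomc TSS, inside Efr3b (chr12:3981180-3982066), had 65, a ratio of 2.13 (1.59 to 2.81), with 17 in the 13 richest (2.43, 1.39 to 3.98) and 48 in the other 87. The others lay at Gys1, Snrnp70 and Ftl1 around Lhb and had ratios of 1.05 to 1.31.

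Several pituitary peaks stood high in the 13 richest members, at regulators and at a receptor, and were picked on these spots, so they are given with no test. The peak at the Six6 start (chr12:72939811-72940624) had 11 cut sites in 6 of the 13 spots (7.21, 3.38 to 14.1), and that at the Ghrhr start (chr6:55376116-55376960) had 10 in 5 spots (6.70, 3.02 to 13.4). Peaks near Foxl2 (chr9:98935100-98935944) and Tbx19 (chr1:165134625-165135473) had 6 each (5.67 and 4.94). The Six6 and Ghrhr peaks lie within 1 kb of their TSSs, so their cut sites largely recount the promoter fragments given above. The Six6 promoter window is shown because it lies at this start.
Six6, chr12:72939632-72939931, plus strand: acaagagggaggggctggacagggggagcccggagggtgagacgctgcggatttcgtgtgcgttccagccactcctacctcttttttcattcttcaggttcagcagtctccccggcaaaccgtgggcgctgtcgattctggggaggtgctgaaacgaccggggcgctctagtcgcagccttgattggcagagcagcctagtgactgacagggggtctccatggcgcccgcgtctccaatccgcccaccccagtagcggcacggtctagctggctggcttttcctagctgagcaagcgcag
It holds no match of the 4 motifs.

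Over all peaks, 1116 of the 5317 with at least 10 cut sites in the 13 were at least 2-fold over the comparison spots. That minimum was set within the 13 and raises this share. Among the highest were the promoter peaks of Ildr1 (chr16:36693560-36694484), a tricellular junction protein of epithelia, with 16 cut sites in 6 spots (13.5, 7.04 to 24.9), and of the potassium channel Kcna5 (chr6:126534987-126535865), with 28 in 8 spots (9.37, 5.92 to 14.4). Kcna5 had 5 cut sites in the other 87 members, or 6.27 CPM, beside 12.6 CPM in comparison spots.

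RNA and accessibility were also set side by side by barcode segment. Spots were divided by whether they lay at a crossing of the 4 strips with the 5 first segments (20 spots), on a strip only (150), on such a first segment only (207) or on neither (1616). Hormone RNA was at 4283 CPM at crossings, 662 CPM on strips only, 109 CPM on first segments only and 87.7 CPM on neither, as the choice of segments fixed. RNA of pituitary transcription factors, which took no part in the score, was 1.81 times (1.03 to 2.97) the level of the spots on neither at crossings and 1.14 times (0.837 to 1.53) on strips only. Receptor RNA was 1.90 times (0.972 to 3.36) and 0.895 times (0.586 to 1.32) that level. The 13 richest members make up 13 of the 20 crossings. They held 14 of the 16 transcription factor UMIs and 7 of the 12 receptor UMIs there. Promoters of pituitary transcription factors were at 359 CPM of promoter fragments at crossings, a ratio of 1.47 (1.09 to 1.94), and at 213 on strips only, a ratio of 0.872 (0.732 to 1.03). Receptor promoters had ratios of 0.911 (0.581 to 1.37) and 0.785 (0.635 to 0.962), and all pituitary promoters 1.26 (1.0 to 1.56) and 0.845 (0.746 to 0.955). At crossings the 13 held 40 of the 51 transcription factor fragments and 70 of the 86 fragments of all pituitary promoters. Pituitary peaks had ratios of 1.20 (1.12 to 1.29) at crossings and 0.998 (0.963 to 1.03) on strips only. The 13 held 579 of the 832 cut sites at crossings, so the crossing values largely repeat those of the 13. RNA of other tissues moved with these classes, and its part in them was not tested. At crossings erythroid RNA was 1.74 times (1.65 to 1.84), Ptgds 3.05 times (2.51 to 3.67), epithelial RNA 1.52 times (1.04 to 2.16) and neuron RNA 0.692 times (0.628 to 0.762) the level of the spots on neither. On strips only these values were 1.59 (1.55 to 1.63), 4.32 (3.98 to 4.69), 0.933 (0.750 to 1.15) and 0.844 (0.810 to 0.878). In the 41 spots of strips 1 to 3 that were not members, pituitary promoters held 318 to 543 CPM of promoter fragments, inside the range of 259 to 721 over 43 other second segments.

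**Figure D5:**
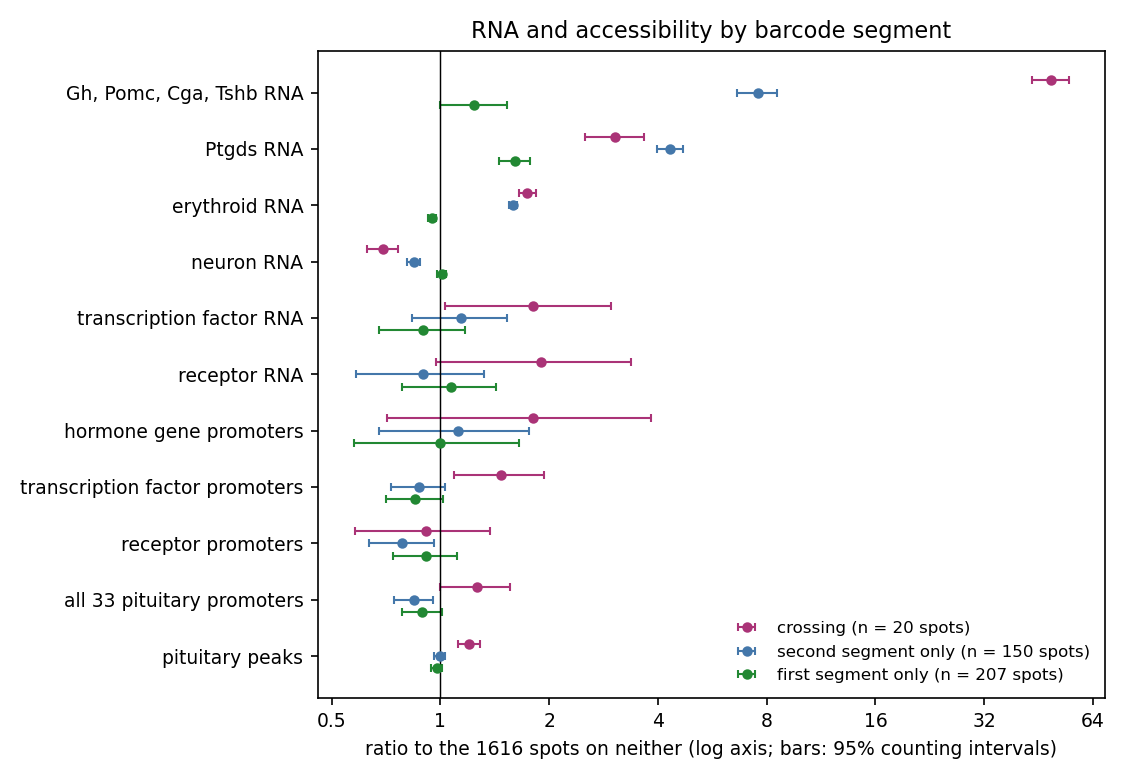
Ratio to the 1616 spots on neither kind of segment (log axis, bars are 95% counting intervals) for hormone RNA, other RNA and accessibility, in spots at crossings, on a strip only and on a first segment only. The 13 richest members make up 13 of the 20 crossings. Hormone RNA, which chose the segments, stands at 48.8 at crossings and 7.55 on strips only, transcription factor RNA at 1.81 and 1.14, and transcription factor promoters at 1.47 and 0.872.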

How the data were processed

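SPARC-seq libraries of RNA and chromatin accessibility were analysed, 1 sample each. Per the file headers, the authors ran cellranger-arc 2.0.1 with an mm10 reference (GRCm38), and the deposited values are raw counts: UMIs per gene for 32285 genes, cut sites per peak, and fragments with their barcodes. Seurat 4.0 is listed in the submitters' processing notes, and no step of it was visible in these counts. How the 1993 matrix barcodes were picked from the 2500 of the fragment file is not given in the sources used here.

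The members, the comparison and the 18 gene lists were chosen with earlier results of these data known. RNA was scaled as counts per 1000000 UMIs (CPM) outside the score genes. Levels of the score genes, and of single genes compared between strips, were scaled to all gene UMIs instead. TSSs came from GENCODE M21, and each was the most upstream start of the principal transcripts of a gene. Fold calls needed 20 counts over both groups and used 5 CPM as pseudocount. Intervals were exact Poisson, Clopper-Pearson or conditional binomial, computed with scipy 1.17.1. Named genes were the score genes, the pituitary list genes with at least 10 UMIs, the 10 highest and 10 lowest ratios, the 2 most abundant genes of the other lists and the 5 pituitary peaks with most cut sites; not all are printed, and others are marked as chosen after their values were seen. Gene-level steps were tested on simulated Poisson counts of abundant genes only. That covered neither genes with few UMIs nor spread between spots, and neither peaks nor promoters. Spots of 1 library are not replicates, and fewer pituitary cells cannot be told apart from less RNA per cell. Promoter sequences were those of RefSeq; Gh and Ghrhr had no entry. Some items of the pituitary lists are not reported here.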

Additional observations from a re-analysis of the deposited data

How the results depend on the processing

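The RNA and the accessibility library share a replicate number and barcodes, so they are paired by spot and were set side by side. They hold different measurements and each had 1 sample, so no paired test between them was made. Over 19 alternatives to 25 results, 296 values were computed, of which 224 stayed inside the main interval (for counts, within 1.5 times), 71 moved and 1 reversed, where a reversal needs both intervals to leave out 1 on opposite sides. Of 271 ratios, 33 lay on the other side of 1 from the main ratio, 7 of them for lists whose main interval left out 1 (choroid plexus, bone and connective tissue, erythroid, hypothalamic peptide and skeletal muscle RNA). The reversal was skeletal muscle RNA, whose ratio of 1.06 in all members became 0.774 when the 13 richest members were set against the 201 comparison spots with at least 27557 fragments, the lowest number among the 13. In that setting, chosen after seeing the data, the ratios were 1.24 for hormone processing and granule RNA, 1.75 for transcription factor promoters, 1.42 for receptor promoters, 1.66 for all pituitary promoters and 1.29 for pituitary peaks. Against all comparison spots, and likewise chosen after seeing the data, the 13 gave 2.40 for transcription factor RNA, 1.77, 1.25 and 1.57 for these promoters, 1.31 for peaks, and 1001 genes higher and 2948 lower. The other 87 members gave 0.855 for transcription factor promoters, 0.841 for all pituitary promoters and 1.05 for peaks. Set against the other spots of strips 1 to 3, members gave 1.34 for receptor promoters and 1.19 for all pituitary promoters. Counts past 2-fold depended on the number of spots and on the filter. They were 508 higher and 1501 lower for the top 50 spots, 51 and 115 for the top 200, 98 and 347 with at least 50 UMIs, and 524 and 1148 with a pseudocount of 1 CPM, and 141 were higher among spots with at least 2000 UMIs. In the main setting 231 of 13658 genes were higher and 655 lower. The numbers of genes tested in the other settings, the 13 included, are not given here. Their counts are thus not shares and are not read as results about the genes. Of the 2588 genes with at least 8 UMIs in the 13, 92 were higher. The share of members on the 3 most used second segments was 59.5% for the top 200 spots, 77.0% with at least 2000 UMIs, 73.0% with Pomc left out of the score and 72.0% with Gh left out. Strips 1 to 3 hold 131 spots in all, which limits the share that 200 spots can reach. The ratio of pituitary peaks was 1.18 for the top 50 spots, 1.05 within 10 kb of the TSS and 1.02 within 100 kb. The cause of these shifts was not tested. Of the 100 members, 65 were picked again without Pomc, 73 without Gh and 71 with at least 2000 UMIs, and of the 13 richest, 10, 13 and 13 were.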
